A study of Mus musculus with 8 samples.

Results

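The genes described here are 37 markers of the liver cells that are not hepatocytes, out of 21851 mouse protein-coding genes. They were listed by name, by a rule that uses no peak value, as 11 markers of Kupffer cells (the resident macrophages), 11 of sinusoidal endothelial cells, 7 of stellate cells and pericytes, 5 of biliary cells and 3 of lymphoid cells or all leukocytes. The list was drawn up with earlier results of these data known. All 37 genes were found in the annotation. The question was where H3K27-me3, trimethylation of lysine 27 of histone H3, lies at these genes in liver chromatin. RNA was not measured in the files used here, so the cell type given to each gene comes from the list and was not checked against its expression.

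H3K27-me3 ChIP-seq was done on minced liver of male JMJD3-floxed C57BL/6 mice. At an age of 8 weeks they received AAV-TBG-Cre, or AAV-GFP as the control, and 12 weeks later livers were taken after a 16 h fast. JMJD3 is a demethylase that removes this mark, and the TBG promoter drives Cre in hepatocytes, so the floxed gene is targeted in hepatocytes and not in the cells that express these markers. Each virus group had 2 mice, each with an H3K27-me3 and an input library, and the authors combined both mice into 1 list of enriched regions. The files give no value per mouse, so the lists were compared without replicates and no test was made. The peak lists do not measure how far JMJD3 was reduced, and both groups carry the floxed allele. The AAV-Cre list held 59267 regions over 73.7 Mb and the AAV-GFP list 34586 regions over 14.9 Mb, a ratio of 4.93 in covered length. The narrowest region was 300 bp in AAV-Cre and 120 bp in AAV-GFP, and the sequencing depth is unknown. The number of cells that carry the mark and the amount of mark per cell cannot be told apart in bulk liver.

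H3K27-me3 is written by Polycomb repressive complex PRC2 through EZH2 or EZH1 and removed by the demethylases JMJD3 and UTX. It is found at genes that a cell lineage keeps silent, often at start sites rich in unmethylated CG dinucleotides. Hepatocytes make up most of the liver mass and do not use the identity genes of the macrophages, endothelial cells, stellate cells, bile duct cells and lymphocytes around them.

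The DNA just before the start site differed widely among the markers in its content of CG dinucleotides. In the RefSeq promoter table, 28 of the 37 genes had an entry, and Csf1r, Adgre1, C1qa, Lyve1, Pecam1, Cdh5, Oit3, Pdgfrb and Dcn had none. The 250 bases before the start of 6 of them (mm10, in the GRCm38.p6 assembly) are shown on the strand of the gene, with each CG in capitals. They were chosen with the peak values known, as examples of starts with a region within 1 kb in both lists, in AAV-Cre only or in neither. Reln and Epcam were marked within 1 kb in both lists, as was Cldn7, the marker with the strongest region. Cftr and Clec4g had a region over the start in AAV-Cre only, and Cd5l had none within 15 kb.
Reln: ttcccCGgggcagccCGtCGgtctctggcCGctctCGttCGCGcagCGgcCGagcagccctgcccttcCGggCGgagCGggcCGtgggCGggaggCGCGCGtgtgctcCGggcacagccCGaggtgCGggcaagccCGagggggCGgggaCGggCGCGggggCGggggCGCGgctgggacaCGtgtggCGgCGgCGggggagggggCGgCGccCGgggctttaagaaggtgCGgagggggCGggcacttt
Epcam: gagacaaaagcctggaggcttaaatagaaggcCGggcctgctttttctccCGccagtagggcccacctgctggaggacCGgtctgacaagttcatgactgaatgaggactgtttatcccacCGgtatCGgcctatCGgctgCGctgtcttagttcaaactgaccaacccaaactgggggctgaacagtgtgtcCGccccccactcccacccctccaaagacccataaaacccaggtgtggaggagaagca
Cldn7: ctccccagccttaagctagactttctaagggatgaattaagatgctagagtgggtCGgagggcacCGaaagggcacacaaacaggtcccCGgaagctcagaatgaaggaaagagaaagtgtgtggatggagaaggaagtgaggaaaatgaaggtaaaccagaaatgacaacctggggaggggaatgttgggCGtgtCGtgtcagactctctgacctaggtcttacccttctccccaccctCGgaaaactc
Cftr: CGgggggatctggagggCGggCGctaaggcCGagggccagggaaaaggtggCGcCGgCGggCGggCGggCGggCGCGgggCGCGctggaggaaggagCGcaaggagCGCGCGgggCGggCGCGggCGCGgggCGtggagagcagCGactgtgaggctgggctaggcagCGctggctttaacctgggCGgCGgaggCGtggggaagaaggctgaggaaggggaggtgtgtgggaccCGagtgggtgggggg
Clec4g: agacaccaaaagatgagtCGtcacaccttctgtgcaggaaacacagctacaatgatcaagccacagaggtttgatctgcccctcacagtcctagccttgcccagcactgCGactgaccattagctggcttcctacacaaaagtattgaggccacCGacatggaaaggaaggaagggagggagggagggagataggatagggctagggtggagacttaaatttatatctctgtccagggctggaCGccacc
Cd5l: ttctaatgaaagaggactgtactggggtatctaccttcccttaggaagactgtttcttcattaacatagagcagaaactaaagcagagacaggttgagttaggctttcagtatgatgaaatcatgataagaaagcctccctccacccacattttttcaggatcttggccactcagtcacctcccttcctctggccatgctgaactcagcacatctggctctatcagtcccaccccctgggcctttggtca
The Reln stretch (chr5:22344706-22344955, minus strand) held 37 CG, more than 97.8% of the 32851 RefSeq promoters, and Cftr (chr6:18170437-18170686, plus strand) held 30. Epcam (chr17:87635729-87635978, plus strand) held 8, Cldn7 (chr11:69964529-69964778, plus strand) 6 and Clec4g (chr8:3720652-3720901, minus strand) 4. The Cd5l stretch (chr3:87357631-87357880, plus strand) held 0. CG reads the same on both strands, the median of all RefSeq promoters was 6, and 92.1% held at least 1. The Cldn7 stretch lay wholly inside a region of both lists, although it is not rich in CG. Of the Epcam stretch all 250 bases lay in an AAV-Cre region and 197 in an AAV-GFP region, and of the Reln stretch 240 bases lay in an AAV-Cre region and 0 in AAV-GFP. The Cftr stretch lay wholly inside an AAV-Cre region, 173 of the 250 bases of Clec4g did so, and none of either was in an AAV-GFP region.

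Over the 37 genes together, the share with a region near a start site was higher than over all protein-coding genes in each list, but the cell types differed. The stellate genes (85.7% within 1 kb in each list) and the biliary genes (4 of 5 in AAV-Cre and 3 of 5 in AAV-GFP) stood well above the level of all genes. In AAV-GFP the stellate share includes Reln and Dcn, which limiting the q-value to 0.05 or 0.01 removed. The Kupffer and endothelial genes (27.3% each in AAV-Cre) lay near the level of all genes. By AAV-GFP regions the Kupffer genes (9.09%) and the lymphoid genes (0 of 3) lay below it. Their Wilson 95% intervals (1.62 to 37.7% and 0 to 56.1%) still included it. Within 1 kb of a start site, a region was listed at 17 of 37 genes (45.9%, Wilson 95% interval 31.0 to 61.6%) in AAV-Cre, beside 24.0% of all protein-coding genes. In AAV-GFP this was so for 12 genes (32.4%, interval 19.6 to 48.5%), beside 16.6% of all genes. At this distance 11 genes were marked in both lists (beside 16.3% of all genes), 6 only in AAV-Cre (beside 7.63% of all genes) and 1 only in AAV-GFP (beside 0.288%). These intervals cover counting error only, and the genes were chosen as a list, so the shares are a description. Within 15 kb, AAV-Cre regions were listed at 26 genes (70.3%, interval 54.2 to 82.5%) and AAV-GFP regions at 17 (45.9%, with the bounds 31.0 and 61.6%), beside 41.6% and 28.0% of all genes. Of the 37 genes, 16 were then marked in both lists (beside 26.8% of all genes), 10 only in AAV-Cre (beside 14.8%), 1 only in AAV-GFP (beside 1.21%) and 10 in neither (beside 57.2%).

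The AAV-GFP counts rested partly on short or weak regions. With a minimum width of 300 bp in both lists, chosen after the data were seen, 6 genes were marked within 1 kb and 11 within 15 kb by AAV-GFP regions, beside 13.5% and 20.1% of all genes under the same limit. Limiting the q-value to 0.01 gave 8 and 11 genes, beside 12.7% and 19.4%. The AAV-Cre counts with the minimum width were 17 and 26, beside 24.0% and 41.6%, and with the q-value limit 16 and 25, beside 22.6% and 38.5%. The 6 genes marked within 1 kb only in AAV-Cre became 11 with the minimum width and 8 with the q-value limit. Over all genes this share rose as well, from 7.63% to 10.5% with the minimum width and 9.97% with the q-value limit.

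A start site lay inside a region for 15 genes (40.5%) in AAV-Cre and 6 (16.2%) in AAV-GFP, beside 19.6% and 11.0% of all genes. The nearest region was closer in AAV-Cre for 30 genes, closer in AAV-GFP for 1 and at the same distance for 6. Over all genes it was closer in AAV-Cre for 76.8%. Over the gene body, 23 markers (62.2%) had a region in AAV-Cre and 14 (37.8%) in AAV-GFP, beside 28.9% and 20.7% of all genes.

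**Figure D1:**
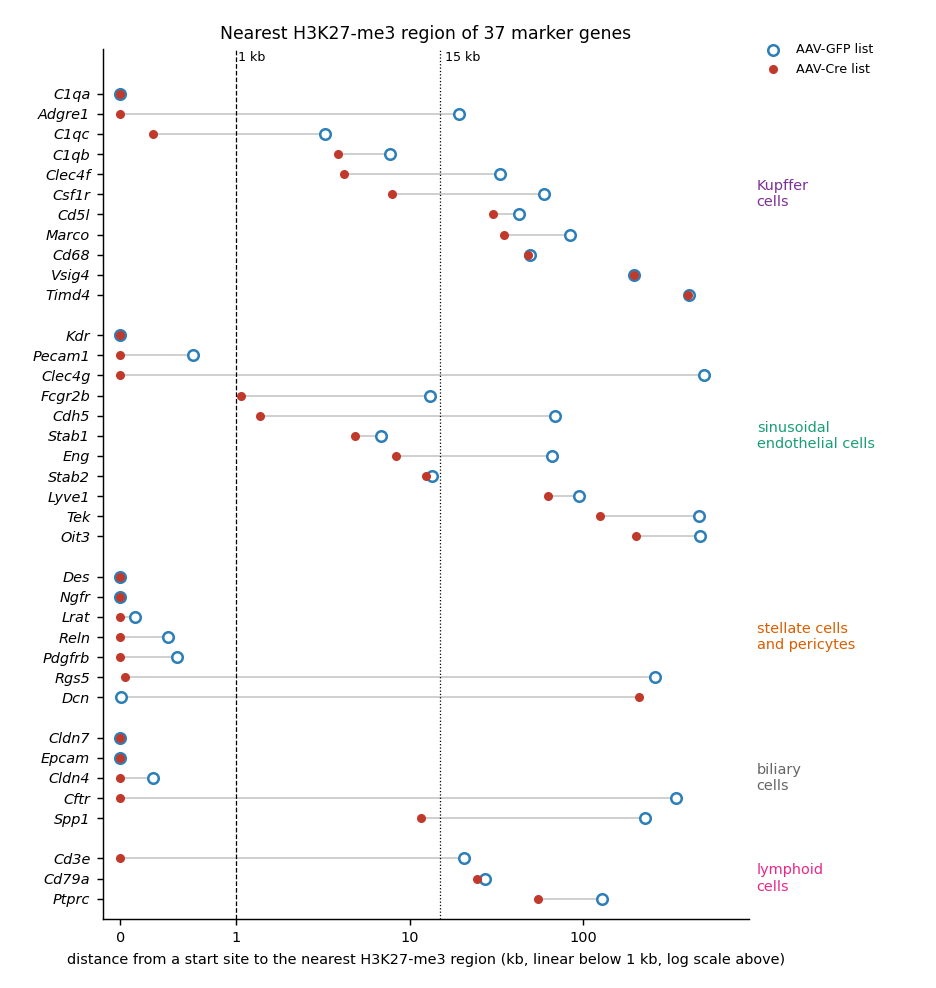
Distance in kb from a start site to the nearest H3K27-me3 region for each of the 37 markers (rows, by cell type), linear below 1 kb and on a log scale above, with filled points for the AAV-Cre list and open points for the AAV-GFP list. A point at 0 is a start site inside a region (15 genes in AAV-Cre, 6 in AAV-GFP), and Dcn is the only gene whose AAV-GFP region is the closer one.

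No marker had its nearest region between 13445 and 19364 bp in either list, so the 15 kb edge fell in a gap. Just inside it lay Spp1 (11560 bp) and Stab2 (12364 bp) in AAV-Cre, and Fcgr2b (13177 bp) and Stab2 in AAV-GFP. Just outside lay Cd79a (24525 bp) in AAV-Cre, and Adgre1 and Cd3e (20630 bp) in AAV-GFP.

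The 7 genes of stellate cells, the vitamin A storing cells beside the sinusoids, and of pericytes had the largest share marked within 1 kb of the 5 cell types, in both lists when all regions were counted. In each list 6 of them (85.7%) had a region at this distance, 5 of these in both lists, and the window of 15 kb added none. Their median distance to the nearest region was 0 bp in AAV-Cre and 125 bp in AAV-GFP, beside 26693 and 58344 bp over all genes. With a q-value limit of 0.05 or 0.01, AAV-GFP regions marked within 1 kb only Lrat, Des, Pdgfrb and Ngfr of these 7. Of the 5 biliary genes Epcam, Cldn4 and Cldn7 stayed, so the stellate share in AAV-GFP was then not the largest.

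Ngfr, the p75 neurotrophin receptor, had the largest covered share of any marker. In AAV-Cre a region of 8845 bp (chr11:95579313-95588157), the widest at any of the markers, lay over its start site and coding exons, with a fold enrichment over input of 6.49 and a −log10 p of 31.9. In AAV-GFP the same stretch was listed as several shorter regions, of which the one over the start site was 1541 bp wide (chr11:95586640-95588180) with a fold of 5.08 and a −log10 p of 17.7. Regions covered 73.3% of the bases within 15 kb of its start site in AAV-Cre and 20.5% in AAV-GFP, more than in 99.2% and 97.9% of all genes. No other gene had a start site closer to these regions.

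Des, which encodes the intermediate filament desmin, had regions over its start site in both lists. The AAV-Cre region (chr1:75357748-75361665) was 3918 bp wide with a fold of 8.09, and the AAV-GFP region (chr1:75359934-75360998) was 1065 bp wide with a fold of 2.77. Further regions of both lists downstream of Des lay closer to the start site of its neighbour Speg. Of the window of Des, 44.5% was covered in AAV-Cre and 5.58% in AAV-GFP.

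Lrat, the retinol esterifying enzyme of stellate cells, and Reln, which encodes the secreted protein reelin, had narrower stretches at CG-rich starts. At Lrat, an AAV-Cre region of 2634 bp (chr3:82902411-82905044) covered the start site with a fold of 4.51, and 5 AAV-GFP regions of 139 to 312 bp lay inside it. The strongest of these, 206 bp into the gene, had a fold of 3.29 and a q-value of 3e-05, and 2 of the 5 had a q-value of 1.0.
Reln had an AAV-Cre region of 2582 bp (chr5:22342364-22344945) over the start site, with a fold of 5.39 and a q-value of 1.4e-13. The 2 AAV-GFP regions there were 126 and 190 bp wide, began 831 and 414 bp into the gene, and had q-values of 0.33 and 1.0. Reln was thus marked in AAV-GFP only by regions that no q-value limit used here would keep.

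Pdgfrb, the receptor for platelet-derived growth factor on pericytes, had an AAV-Cre region of 3051 bp over its start site with a fold of 4.17. In AAV-GFP a region of 202 bp lay 490 bp into the gene, with a fold of 3.13 and a q-value of 0.0015. The strongest upstream regions of both lists lay closer to the start site of Cdx1, so the coverage of its window, 44.4% in AAV-Cre and 7.67% in AAV-GFP, is partly that of the neighbour.

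Rgs5 and Dcn were each listed in 1 list only. Rgs5, a regulator of G protein signalling in pericytes, had an AAV-Cre region of 900 bp (chr1:169654558-169655457) that ended 44 bp before its start site, with a fold of 2.77 and a q-value of 0.003, while AAV-GFP regions came no closer than 259870 bp. Dcn, which encodes the matrix proteoglycan decorin, was the only marker listed in AAV-GFP alone. Its region (chr10:97479611-97479739) was 129 bp wide, began 2 bp inside the gene, and had a fold of 2.07, a −log10 p of 2.03 and a q-value of 1.0, at percentile 1.26 of its list. The percentile is the rank of a region among all regions of its own list by −log10 p, from 0 to 100. The nearest AAV-Cre region was 210474 bp from Dcn, and its AAV-GFP call was lost with any q-value limit or with the minimum width.

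The 5 biliary genes, markers of the epithelium that lines the bile ducts, held the strongest regions. Within 1 kb, 4 were marked in AAV-Cre and 3 in AAV-GFP, and within 15 kb AAV-Cre regions marked all 5 and AAV-GFP regions 3. The claudins Cldn4 and Cldn7 and the adhesion molecule Epcam were the 3 marked in both.

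Cldn7, a component of tight junctions, lay wholly under the mark. The AAV-Cre region (chr11:69963752-69967934) was 4183 bp wide with a fold of 14.2 and a −log10 p of 75.8, at percentile 99.8 of its list. The AAV-GFP region (chr11:69964486-69967777) was 3292 bp wide with a fold of 5.97 and a −log10 p of 25.2, at percentile 99.1. They covered 100% and 96.5% of the gene body. In AAV-Cre this was equalled by Cldn4 alone, and in AAV-GFP it was the highest value among the markers. Weaker regions further upstream of Cldn7 lay closer to Slc2a4.

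Epcam, an epithelial cell adhesion molecule, had the regions with the next highest −log10 p in both lists. In AAV-Cre a region of 4977 bp (chr17:87634751-87639727) covered its start sites with a fold of 7.71 and a −log10 p of 46.8, at percentile 98.5. In AAV-GFP the strongest of 4 regions (chr17:87636625-87637599) was 975 bp wide and lay over the second start site, with a fold of 4.81 and a −log10 p of 20.2, at percentile 98.2. At the upstream start site, whose sequence is shown above, the AAV-GFP list held a region of 232 bp with a q-value of 0.018. Cldn4, the tight junction protein claudin-4, was covered over its whole body by an AAV-Cre region of 2759 bp (chr5:134945057-134947815, fold 6.26) and over 23.7% of it in AAV-GFP. The nearest of the AAV-GFP regions lay 280 bp into the gene, was 144 bp wide, and had a fold of 3.34 and a q-value of 7.3e-05.

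Cftr and Spp1 were marked only in AAV-Cre. Cftr, the chloride channel of the bile duct epithelium, had a single region of 647 bp (chr6:18170257-18170903) over the CG-rich start shown above, a fold of 4.6 and a q-value of 7.2e-10, and in AAV-GFP the nearest one was 340924 bp away. Among the markers with a region over the start site in AAV-Cre and none within 15 kb in AAV-GFP, this region had the highest −log10 p (11.6). Spp1, which encodes osteopontin, had its nearest AAV-Cre region 11560 bp downstream of its start, closer to Pkd2, and AAV-GFP had none up to 227537 bp. No region in the window of Spp1 had the start of Spp1 as its closest one.

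**Figure D2:**
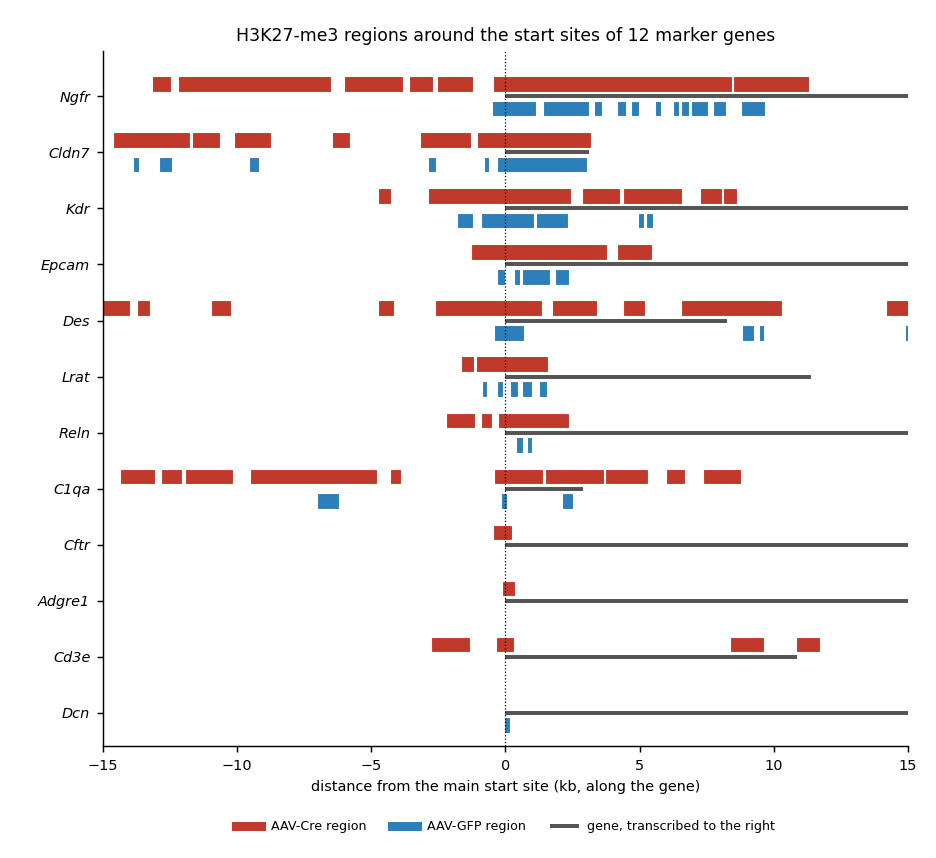
Regions of the AAV-Cre list (above each gene line) and the AAV-GFP list (below it) within 15 kb of the main start site of 12 markers, with distance in kb along the direction of transcription and the gene as a grey line. AAV-GFP regions lie mostly under an AAV-Cre region and are narrower, Cftr, Adgre1 and Cd3e have AAV-Cre regions only, and Dcn has the single AAV-GFP region of 129 bp.

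Of the 11 genes of sinusoidal endothelial cells, which line the liver capillaries and clear macromolecules from blood, 3 (27.3%) were marked within 1 kb in AAV-Cre and 2 (18.2%) in AAV-GFP, beside 24.0% and 16.6% of all genes. Within 15 kb these numbers were 8 (72.7%) and 5 (45.5%), beside 41.6% and 28.0%. The median distance to the nearest region was 4869 bp in AAV-Cre, beside 26693 bp over all genes, and 65972 bp in AAV-GFP, beside 58344 bp.

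Kdr, the receptor for vascular endothelial growth factor also called VEGFR2, held the strongest endothelial region in each list. The AAV-Cre region (chr5:75976052-75981320) was 5269 bp wide with a fold of 8.45 and a −log10 p of 40.9, and the AAV-GFP region (chr5:75977437-75979348) was 1912 bp wide with a fold of 4.28 and a −log10 p of 14.9. Both lay over the start site, at percentiles 97.9 and 96.2 of their lists, and their closest other start site was that of Srd5a3, 158951 and 160923 bp away. Its window was covered to 34.3% in AAV-Cre and 13.2% in AAV-GFP, a ratio of 2.59, the lowest among the markers covered in both.

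Pecam1, an adhesion molecule of all endothelial cells, had the highest ratio. Its body held 27 regions in AAV-Cre and 1 in AAV-GFP, and 39.9% against 0.984% of its window was covered, a ratio of 40.5. The region over its main start site in AAV-Cre (chr11:106715233-106716837) was 1605 bp wide with a fold of 3.34, and from this start AAV-GFP had none up to 30345 bp. The AAV-GFP region that placed Pecam1 within 1 kb was 296 bp wide, lay 626 bp from a distal start site, had a q-value of 0.98 and overlapped the start of the neighbour Milr1. The strongest AAV-Cre regions of Pecam1 (folds 8.13 and 6.61) lay at the same end of the gene, next to Milr1.

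The scavenger receptors Stab1 and Stab2, which take up hyaluronan and other ligands, were marked within their bodies and not at their starts. At Stab1 an AAV-Cre region of 3144 bp (chr14:31160629-31163772) lay over coding exons 4869 bp into the gene, with a fold of 6.13 and a −log10 p of 23.8, and held both AAV-GFP regions of 121 and 231 bp. At Stab2, 13 AAV-Cre regions and 1 AAV-GFP region lay within the gene, and the nearest to the start was an upstream region at 12364 bp in AAV-Cre and 13445 bp in AAV-GFP. Fcgr2b, the inhibitory Fc receptor, had 7 AAV-Cre regions in its window, the nearest 1063 bp upstream, and 1 AAV-GFP region of 211 bp at 13177 bp with a q-value of 0.11.

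Clec4g, Cdh5 and Eng were marked only in AAV-Cre. Clec4g, a lectin of sinusoidal endothelium, had a region of 464 bp over its start (chr8:3720361-3720824) with a fold of 2.25 and a q-value of 0.14, at percentile 2.62 of its list. Another AAV-Cre region of 338 bp lay 562 bp into the gene, with a q-value of 0.023. A further one of 886 bp in its window had a q-value of 0.003. AAV-GFP regions came no closer to Clec4g than 495205 bp. Cdh5, the VE-cadherin of endothelial junctions, had 4 upstream regions of 398 to 949 bp, the nearest at 1377 bp (fold 3.38), and an AAV-GFP region only at 68643 bp. Eng, the TGF-beta coreceptor endoglin, had a region of 370 bp at 8313 bp (fold 2.31) and another closer to Ak1. The hyaluronan receptor Lyve1, Tek and Oit3 were marked in neither list, with the nearest AAV-Cre region at 62786, 125668 and 200326 bp, although the long body of the angiopoietin receptor Tek held 1 AAV-Cre region.

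Of the 11 Kupffer cell genes, 3 (27.3%) were marked within 1 kb in AAV-Cre and 1 (9.09%) in AAV-GFP, beside 24.0% and 16.6% of all genes. Within 15 kb the counts were 6 (54.5%) and 3 (27.3%), beside 41.6% and 28.0%, and the C1q genes made up 3 of them in each list. C1qa, C1qb and C1qc encode the chains of the complement component C1q and lie side by side, so they shared regions and are not independent. The strongest of these (chr4:136903643-136908289, upstream of C1qa) was 4647 bp wide in AAV-Cre with a fold of 6.17, and contained an AAV-GFP region of 732 bp with a fold of 4.03. Over the start site of C1qa itself lay an AAV-Cre region of 1741 bp (fold 3.69) and an AAV-GFP region of 148 bp (fold 2.47, q-value 0.088). The window of C1qa was covered to 53.3% in AAV-Cre and 4.06% in AAV-GFP, and C1qb and C1qc to 32.3% and 45.2% in AAV-Cre. Each AAV-GFP region in the window of C1qc lay closer to the start of C1qa or C1qb.

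Adgre1, which encodes the macrophage marker F4/80, had an AAV-Cre region of 433 bp over its start (chr17:57358590-57359022) with a fold of 2.95 and a q-value of 0.00095. In AAV-GFP its nearest region lay at 19364 bp. Csf1r, the receptor for macrophage colony-stimulating factor, had an AAV-Cre region of 2467 bp at 7904 bp upstream (fold 4.12), and Clec4f, a lectin of Kupffer cells, one of 554 bp at 4175 bp upstream (fold 2.38, q-value 0.057). Their nearest AAV-GFP regions were 59681 and 33209 bp away. The other 5 were marked in neither list. From the start of Cd5l, a scavenger receptor family protein secreted by macrophages, the nearest AAV-Cre region was 30330 bp away, and from those of the scavenger receptors Marco and Cd68 it was 34992 and 48098 bp. It was 196064 bp from Vsig4, a complement receptor on the X chromosome, and 403896 bp from Timd4, a receptor for phosphatidylserine. The AAV-GFP region nearest to these 5 genes was 42662 to 408250 bp away, and none of the 5 had a region over its body in either list.

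Of the 3 lymphoid or leukocyte genes, only Cd3e was marked, and only in AAV-Cre. Cd3e, a chain of the T cell receptor complex, had 4 regions in its window, of which one of 600 bp lay over the start (chr9:45009319-45009918, fold 3.04, q-value 0.00095) and the strongest, 1363 bp wide and 1359 bp upstream, had a fold of 4.04. In AAV-GFP its nearest region lay at 20630 bp. Cd79a, a chain of the B cell receptor complex, had its nearest region at 24525 bp in AAV-Cre and 27080 bp in AAV-GFP. Ptprc, the leukocyte phosphatase CD45, had it at 54874 and 128595 bp, with 1 AAV-Cre region inside its long body.

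**Figure D3:**
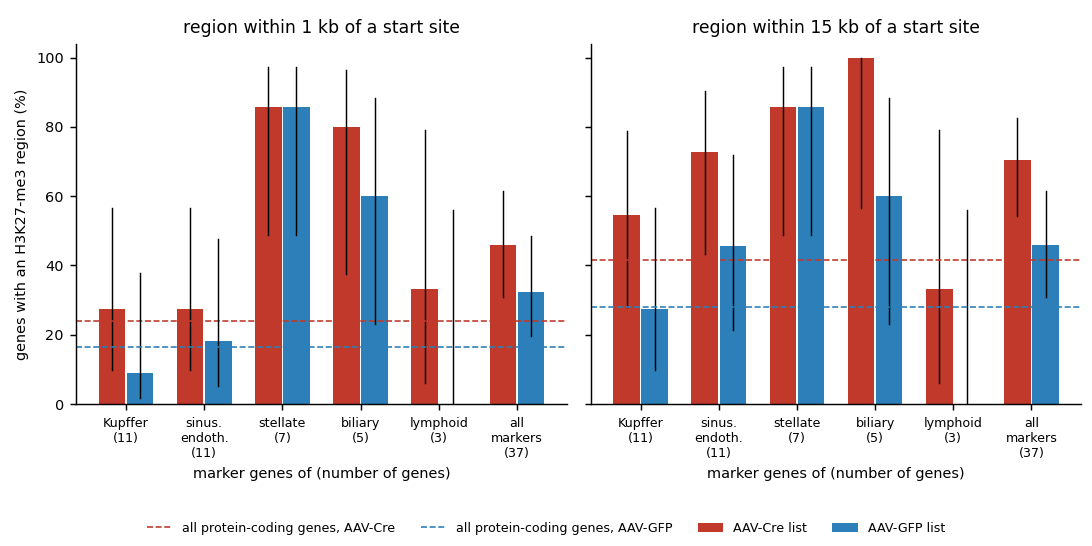
Percent of marker genes of each cell type (number of genes in brackets) with an H3K27-me3 region within 1 kb (left) or 15 kb (right) of a start site, with Wilson 95% intervals as vertical lines and the level of all protein-coding genes as dashed lines. The stellate bars stand at 85.7% in both lists and the Kupffer bars within 1 kb at 27.3% and 9.09%, but groups of 3 to 11 genes leave wide intervals. The AAV-GFP stellate bars include Reln and Dcn, which a q-value limit of 0.05 or 0.01 removed.

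The regions at the markers differed between the lists in width and number, as the whole lists did. Counting each region once, 141 AAV-Cre and 61 AAV-GFP regions lay in a window or over a body. Their median widths were 874 and 247 bp, beside 753 and 231 bp in the whole lists of 59267 and 34586 regions. An AAV-Cre region was overlapped, by at least 1 base, by 58 of the 61 (95.1%, 86.5 to 98.3%), beside 86.4% of the whole AAV-GFP list. In the other direction 31 of the 141 (22.0%, 15.9 to 29.5%) were shared, beside 24.2% of the whole AAV-Cre list. Both intervals treat regions as independent, although many lie side by side, such as the 13 AAV-GFP regions over the body of Ngfr, so they are too narrow. The AAV-Cre regions that overlapped were wider (median 2634 bp) than those that did not (704 bp). A q-value of at most 0.05 was reached by 93.6% of these AAV-Cre and 55.7% of these AAV-GFP regions, beside 88.6% and 46.8% in the lists.

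The bases covered within 15 kb of the start sites summed to 177 kb for AAV-Cre and 28.1 kb for AAV-GFP. The sum was taken gene by gene, so bases in the overlapping windows of C1qa, C1qb and C1qc count more than once. The mean covered share of a window was 14.8% and 2.5%, a ratio of 5.94, and over all genes it was 6.76% and 1.96%, a ratio of 3.45. More than 10% of the window was covered at 16 markers (43.2%) in AAV-Cre and 3 (8.11%) in AAV-GFP, beside 21.1% and 5.46% of all genes. The 3 were Ngfr, Cldn7 and Kdr. By cell type the mean share in AAV-Cre and in AAV-GFP was 26.9% and 5.54% for stellate genes, 16.7% and 5.01% for biliary genes, 12.9% and 1.05% for Kupffer genes, 11.0% and 1.54% for endothelial genes, and 4.42% and 0% for lymphoid genes. The Kupffer means rest largely on C1qa, C1qb and C1qc (53.3%, 32.3% and 45.2% in AAV-Cre), whose windows overlap. No other Kupffer gene was covered above 8.15% (Csf1r) in AAV-Cre, and none of them was covered in AAV-GFP. The median share in AAV-Cre was 1.44% for Kupffer genes and 7.5% for endothelial genes, the reverse of the order of their means. A difference between the lists in depth or in the peak call would move these shares too, and their part was not tested.

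**Figure D4:**
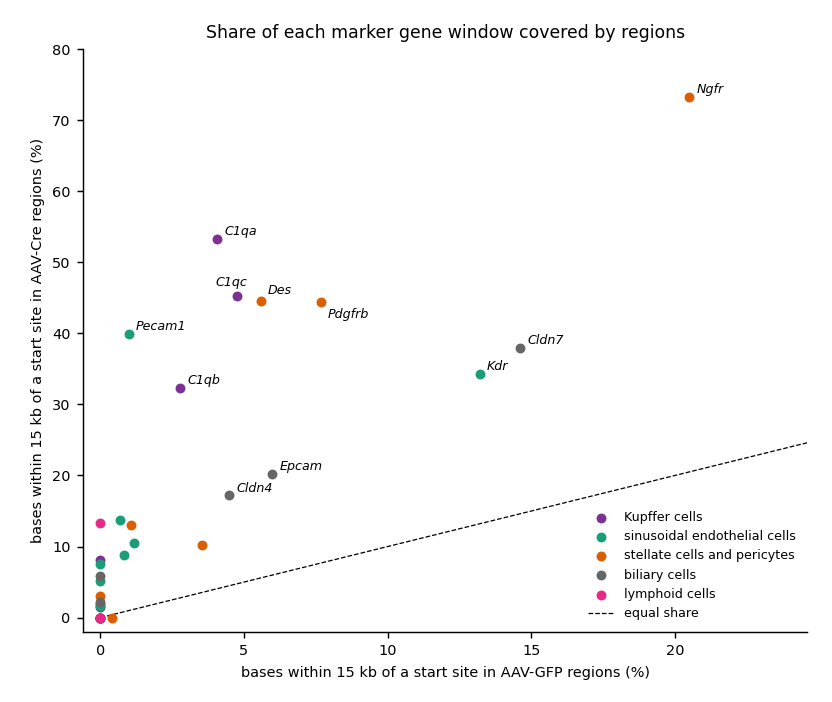
Percent of the bases within 15 kb of a start site that lie in AAV-GFP regions (horizontal axis) and AAV-Cre regions (vertical axis), 1 point per marker gene coloured by cell type, with a dashed line where both would be equal. Ngfr stands highest (20.5% and 73.3%), Dcn is the only point below the line, and genes marked in neither list lie at the origin.

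The CG content of the start sites, which the choice of genes did not use, was low for most markers. Within 500 bp on either side of the main start site the median was 18 CG, beside 43 over all protein-coding genes. It was 7 for Kupffer genes, 16 for endothelial, 20 for lymphoid, 31 for biliary and 51 for stellate genes. Only 5 of the 37 starts (13.5%) were like a CpG island (CG observed over expected of at least 0.6 and a GC content of at least 50%), namely those of Kdr, Lrat, Reln, Des and Cftr, beside 46.1% of all genes.

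All 5 of these had a region within 1 kb in AAV-Cre and 4 in AAV-GFP, beside 23.8% and 19.7% of all genes with such starts. Of the 32 markers with other starts, 12 (37.5%) were marked within 1 kb in AAV-Cre and 8 (25.0%) in AAV-GFP, beside 24.1% and 14.0% of all genes with other starts. Within 15 kb 21 (65.6%) and 13 (40.6%) of the 32 were marked, beside 39.9% and 26.1%. The Wilson intervals of the shares of these 32 were 22.9 to 54.7% and 13.3 to 42.1% within 1 kb and 48.3 to 79.6% and 25.5 to 57.7% within 15 kb, for AAV-Cre and AAV-GFP in turn. The level of all genes with other starts thus lay below the interval within 15 kb in AAV-Cre and inside it in the other 3 cases. By state within 15 kb, the median CG count was 29.0 for the 16 genes marked in both lists (range 11 to 149), 15.5 for the 10 marked only in AAV-Cre (6 to 48) and 12.0 for the 10 in neither (3 to 22). The ranges overlapped widely, and Cldn7, with the strongest regions, had 27.

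**Figure D5:**
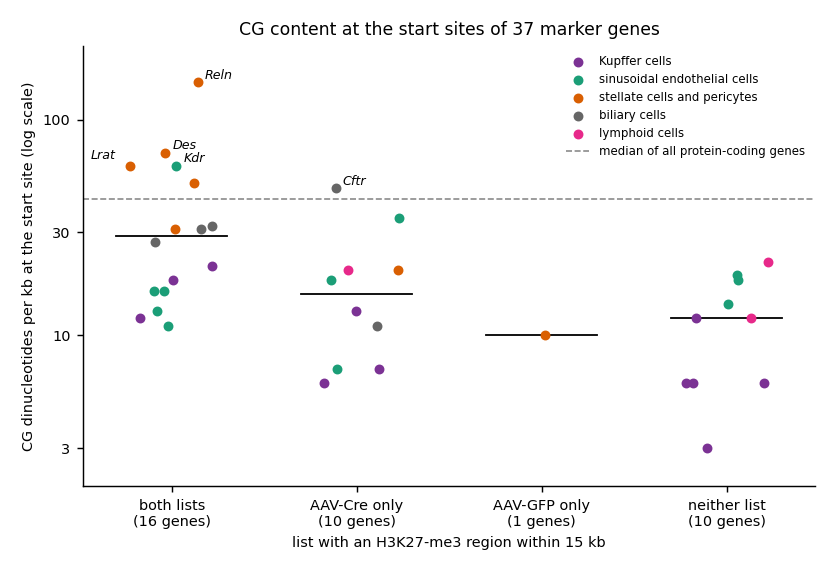
Number of CG dinucleotides within 500 bp on either side of the main start site (log scale) for the markers with a region within 15 kb in both lists, in 1 list or in neither, coloured by cell type, with the median of each set as a black line and that of all protein-coding genes as a dashed line. The named genes have CpG island-like starts, and the medians are 29.0 (both lists), 15.5 (AAV-Cre only) and 12.0 (neither).

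A second list of 107 other genes of the same cell types was examined in the same way. Like the markers, it was chosen with earlier results of these data known, so it is not an independent check. Within 1 kb 52 (48.6%) were marked in AAV-Cre and 36 (33.6%) in AAV-GFP, beside 24.0% and 16.6% of all genes. These pooled shares were close to those of the 37 markers, but the shares of single cell types were not always so. Within 15 kb 68 (63.6%) and 55 (51.4%) were marked, beside 41.6% and 28.0%. Only in AAV-Cre were 14 of the 107 (13.1%) marked within 15 kb, beside 14.8% of all genes and 10 of the 37 markers. Among other myeloid genes only 3 of 24 were marked within 1 kb in AAV-Cre (Axl, Aif1 and Cx3cr1) and 1 in AAV-GFP (Axl). Among other endothelial genes it was 16 and 12 of 24, among them the transcription factors Erg, Sox17 and Sox18 and the receptors Flt1 and Flt4 in both lists. Among other stellate and mesenchymal genes it was 14 and 12 of 22, with the transcription factors Hand2, Lhx2, Tcf21 and Wt1 in both lists. Among other biliary genes it was 11 and 8 of 15, with Sox9, Krt19 and Cdh1 in both lists and Krt7 only in AAV-Cre. Of other lymphoid genes 8 and 3 of 22 were marked, where Ebf1, Pax5 and Thy1 were in both lists and Cd3d, Cd3g, Cd79b and Lck were among those only in AAV-Cre. Of these 5 groups the myeloid genes had the smallest share of marked starts in each list (12.5% and 4.17%).

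Genes that hepatocytes use, also chosen with earlier results of these data known, were examined for contrast. Of 43 such genes, 0 had a region within 1 kb of a start site in either list, beside 24.0% and 16.6% of all genes. Within 15 kb 4 (9.3%) had one in AAV-Cre and 1 (2.33%) in AAV-GFP, beside 41.6% and 28.0%. Their windows were covered to a mean of 0.495% in AAV-Cre and 0.00927% in AAV-GFP, beside 6.76% and 1.96% over all genes. The median CG count of their starts was 13, beside 43 over all genes and 12.0 for the markers in neither list. The markers in neither list had their nearest AAV-Cre region 24525 to 403896 bp away. The hepatocyte genes had it at a median of 47443 bp, beside 26693 bp over all genes.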

How the data were processed

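Per the labels, liver chromatin of 2 mice per virus group was immunoprecipitated for H3K27-me3 and sequenced with its input, 8 libraries in all. The authors mapped reads to mm10 with bwa 0.7.13, filtered them with Samtools 1.2 and Picard 1.126, called peaks with MACS through the AQUAS pipeline against pooled input, and kept peaks that overlapped across replicates. The deposited lists, 1 per group, hold a fold enrichment for each peak (a ratio of ChIP to local input), its p-value and q-value as −log10, and a display score, which was not used. No read counts are given, so depth is unknown. Broad domains were called as narrow peaks, which splits them. Folds and p-values were ranked within a list only, while the same q-value limits were applied to both lists.

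Regions were set against GENCODE M21 start sites of basic protein-coding transcripts (GRCm38, the assembly mm10 names) of 21851 genes. Shares have Wilson 95% intervals (statsmodels 0.14.6). Promoter sequences came from RefSeq (GRCm38.p6), and 31 of 31 entries read for these genes equalled the genome. The markers, the second list and the hepatocyte genes were chosen with earlier results of these data known. All 37 markers are accounted for, and those with a region within 1 kb, in only 1 list within 15 kb, nearest to the 15 kb edge or strongest in their cell type are described in detail. Other genes are named where their start is closer to a region or, from the second list, where they were marked within 1 kb, except for an item not reported here. Alternatives were q-value limits of 0.05 and 0.01, the 34586 top peaks of each list, start sites of all transcripts, windows of 5 and 50 kb, regions with no closer gene, overlap of at least 0.5 of a region or within 1 kb and, chosen after the data were seen, a minimum width of 300 bp. The search functions were tested on simulated data, where 100% of 1000 genes equalled a direct search. Python 3.11.15, pandas 2.3.3 and numpy 2.4.6 were used.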

Additional observations from a re-analysis of the deposited data

How the results depend on the processing

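With 1 list per group made from both mice, leaving out each mouse could not be run. No paired analysis was possible because the lists hold no value per replicate. Of the recomputed counts and shares, 50 stayed within 1.5 times the reported count or within its interval, and 16 did not. With the minimum width of 300 bp, chosen after the data were seen, AAV-GFP marked 6 genes within 1 kb, 11 within 15 kb and 7 over the body, 0 were marked only in AAV-GFP, and shared regions were 11.3% of AAV-Cre and 100% of AAV-GFP regions. With a q-value of 0.01 or lower, AAV-GFP marked 11 within 15 kb and 9 over the body, and 0 were only in AAV-GFP. With a q-value of 0.05 or lower, 0 genes were only in AAV-GFP and 100% of AAV-GFP regions were shared. With overlap over at least 0.5 of the region, 3.55% of AAV-Cre regions were shared, since they are wider than those of AAV-GFP. Within 1 kb, a count added after the data were seen, the genes only in AAV-Cre numbered 5 to 11 over the settings (11 with the minimum width), and those only in AAV-GFP 0 with this width or either q-value limit. Over all genes, 5.56% were only in AAV-Cre within 1 kb with the 34586 top peaks and 10.5% with the minimum width. The q-value limits of 0.05 and 0.01 gave 9.66% and 9.97%. The genes marked within 15 kb only in AAV-Cre numbered 8 to 15 over the alternatives, 8 with the 34586 top peaks of each list. Over all genes this share was 9.91% with the top peaks, 19.3% with either q-value limit and 21.6% with the minimum width. Without regions that lie closer to another gene, Spp1 was lost in AAV-Cre and C1qc in AAV-GFP. Depth is unknown, so a marker with no region may carry the mark below the level the peak call could detect.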
